A study of Homo sapiens with 9 samples.

Results

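Gene expression in LNCaP cells given the synthetic androgen R1881 was compared with that in cells given vehicle. LNCaP is an established human prostate cancer line, grown from a lymph node metastasis, whose growth and secretion respond to androgen. Cells plated at 1 M (mega) per well were kept for 24 h in 5% charcoal-treated serum, from which steroids had been taken out, and were then given either DMSO, the vehicle, or 1 nM R1881 for 18 h. The 2 groups shared the line, the starvation and the medium, and the labels name no genetic change and no other agent in either. Each had 3 libraries of polyadenylated RNA titled as biological replicates. The labels do not say whether they were separate cultures, so the p-values measure the spread between these libraries. Another 3 libraries of the study, with R1881 and 10 µM of a compound named MEL-6, entered the main test only through the filter on low values. They also entered the depth estimate and an alternative fit over all 9 libraries. A gene was taken where 3 or more of the 9 libraries had at least 0.5 RPKM, that is reads per kilobase of a gene's model relative to all reads of the library. This gave 13295 genes of the 25142 entries in the deposited table, while 5883 entries were listed at 0 in all 9 libraries.

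Androgens bind a nuclear receptor that HSP90 and its co-chaperones hold ready in the cytoplasm. The bound receptor enters the nucleus and attaches to DNA at androgen response elements, inverted repeats of a short motif around a spacer, which lie in some promoters and more often in distant enhancers. In the luminal cells that line the prostate this is known to drive secreted proteases, lipid and glycan synthesis and the secretory pathway, and to hold down a smaller, less well understood set of genes.

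R1881 changed the level of about as many genes as it left within the error, and the strongest changes were rises. Of 13295 tested genes, 6539 (49.2%) were called at a limma adjusted p under 0.05, with 2066 (15.5%) higher and 4473 (33.6%) lower. Most of these changes were small, with a median log2 change of 0.45 among the higher and -0.40 among the lower. All log2 changes are of log2(RPKM + 0.5), which understates the change of low genes. On this scale at least 2-fold changes were called in 346 genes upwards (2.6% of those tested) and 277 downwards (2.08%). Which direction was more frequent at 2-fold depended on the pseudocount, with 410 rises and 512 falls at 0.1 and 302 and 159 at 1. At least 4-fold changes were called in 95 genes upwards and 22 downwards, with 147 and 76 at a pseudocount of 0.1 and 72 and 17 at 1. At least 8-fold changes were called in 29 and 7 genes, with 58 and 14 at 0.1 and 21 and 2 at 1. Means are given ± SD and log2 changes ± SE, with n = 3 libraries a group, and every p is adjusted over all tested genes.

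The many small falls depended on how the libraries were scaled. The median gene stood at a log2 change of -0.12 on the deposited RPKM, where 68.4% of calls were lower, and at -0.001 after median-of-ratios scaling, where 3114 genes were higher, 2605 lower and 45.5% of calls lower. Upper-quartile scaling left the median at -0.104 and 65.5% of calls lower. List counts given below after median-of-ratios scaling stand beside 3114 higher and 2605 lower genes of all 13295 tested. No gene called in one direction was called in the other under any setting tried. Of the 346 genes at least 2-fold higher, 346 were still called higher with median-of-ratios scaling, as were 273 of the 277 at least 2-fold lower. The groups of 7702 genes did not overlap (57.9%), 2398 of them higher (18.0%) and 5304 lower (39.9%).

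**Figure D1:**
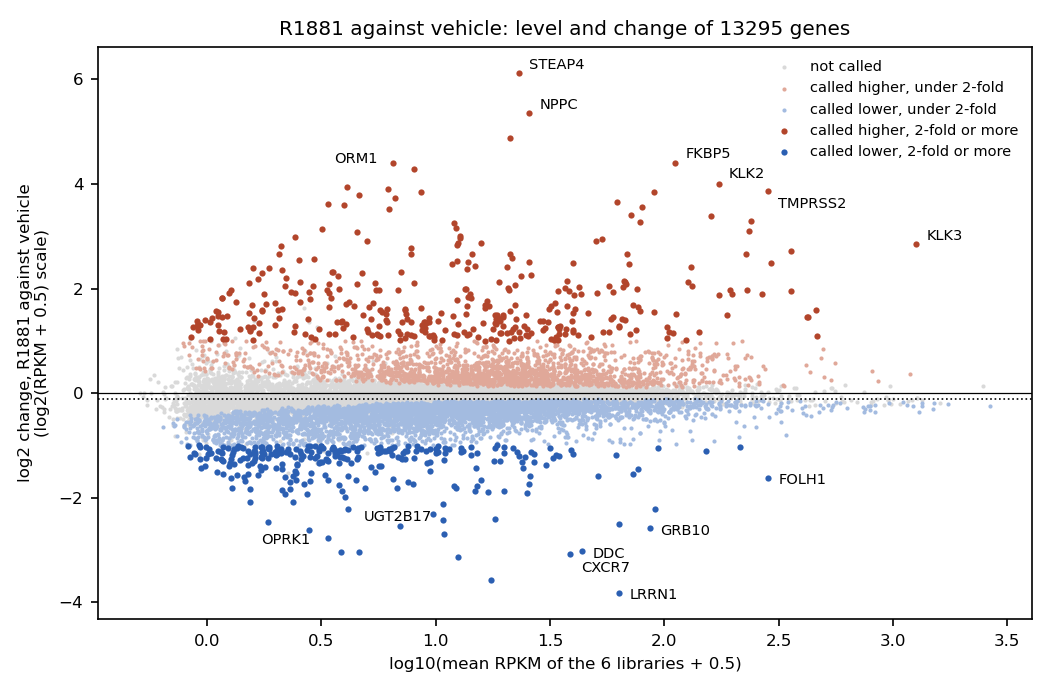
Log2 change (R1881 against vehicle, on the log2(RPKM + 0.5) scale) against the log10 mean level of the 6 libraries for 13295 genes, 1 point a gene, with genes called higher in red and lower in blue, darker at 2-fold or more, and a dotted line at the median of all genes, -0.12. Rises reach a log2 change of 6.12 (STEAP4), further from 0 than the deepest fall, -3.82 (LRRN1), and KLK3 combines a large change with one of the highest levels.

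Large falls were less frequent among abundant genes than among low ones, by a margin that the pseudocount sets. Genes were split by their mean over the 6 libraries into 4 groups of equal size. In the lowest, up to a mean of 3.19 RPKM, 2.53% of genes were at least 2-fold higher and 4.27% at least 2-fold lower. In the highest, from 24.2 RPKM, the shares were 3.22% and 0.812%. The shares of the lowest group became 4.15% and 10.6% with a pseudocount of 0.1 and 1.53% and 1.41% with a pseudocount of 1, while those of the highest stayed at 3.28% and 0.812% and at 3.16% and 0.812%. Among genes with a rise of at least 2-fold the median level was 4.94 RPKM in vehicle and 18.7 RPKM with R1881. Among genes with a fall of that size it was 4.51 and 1.54 RPKM, each median being taken by itself. Summed over called genes the gain was 33679 RPKM, of which KLK3 alone made up 5.68% and the leading 10 genes 17.1%. The summed loss on the deposited RPKM was spread wider, with 9.01% in its leading 10 genes. Most of these were not among the 10 largest losses after median-of-ratios scaling.

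The libraries were close within groups and carried the marks of luminal prostate cells. Across genes, which do not vary independently, replicates correlated at r = 0.989 to 0.994. The estimated depth was 7.18 to 11 M reads for vehicle and 13 to 18.6 M for R1881, so the R1881 libraries were deeper, and the part of depth in the results was not tested. All 11 luminal markers were tested. Of these 6 rose (54.5%, against 15.5% of all tested genes) and 5 fell (45.5%, against 33.6%), or 2 after median-of-ratios scaling. Their summed level was 1463 to 1518 RPKM in vehicle and 4684 to 4893 RPKM with R1881. Of 7 basal markers none reached the tested level, with a summed level of 0.282 to 0.745 RPKM in vehicle and 0.452 to 0.582 RPKM with R1881, and KRT5 and TP63 were listed at 0 in all 6 libraries. PECAM1, CDH5, PTPRC, CD3E and COL1A2, which define endothelial cells, leukocytes and fibroblasts, were also listed at 0. Of 6 endothelial markers only VWF was tested, and it fell from 1.04 ± 0.157 to 0.423 ± 0.0554 RPKM, while 1 of 8 fibroblast markers and 1 of 7 leukocyte markers were tested and not called. Of 7 neuroendocrine markers 2 were tested and ENO2, an enolase that many other cells also make, fell from 43.3 ± 2.08 to 28 ± 1.38 RPKM. In bulk RNA, fewer cells of a kind and less RNA per cell cannot be told apart.

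Genes for secreted and surface proteins of the prostate were prominent among the rises. Of 22 tested, 16 rose (72.7%, against 15.5% of all tested genes), 4 fell (18.2%, against 33.6%) and 2 were not called. The median log2 change was 1.18, against -0.12 over all genes. KLK3 encodes prostate-specific antigen, a protease that liquefies semen, and stood at 328, 325 and 269.8 RPKM in the vehicle libraries and at 2153, 2268 and 2238 RPKM with R1881. Its groups lay far apart and its gain, 1912 RPKM, was the largest of any gene, a 7.21-fold rise (log2 2.85 ± 0.080, limma adjusted p = 1.97e-08). KLK2, the neighbouring gene for a related protease, was at 21.3, 21.9 and 16.7 RPKM in vehicle and 324, 336 and 312 RPKM with R1881. It thus rose 16.2-fold from a lower start (log2 4.0 ± 0.094, adjusted p = 8.05e-09), and in both genes vehicle replicate 3 was the lowest library. KLK4, another protease of the locus, rose from 45.4 ± 3.01 to 134 ± 5.62 RPKM.

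The upstream sequences of KLK3 and KLK2 are shown because these neighbours rose together and the KLK3 promoter is a classical model of androgen response elements. They are the 250 bases before each start on the plus strand of chromosome 19, KLK3 at chr19:50854665-50854914 and KLK2 at chr19:50873189-50873438, from RefSeq on GRCh38.p14, a newer build than that of the expression table. Capitals mark the arms of the window most like the consensus element, AGAACA and TGTTCT with 3 bases of any kind between them, searched on both strands.
KLK3: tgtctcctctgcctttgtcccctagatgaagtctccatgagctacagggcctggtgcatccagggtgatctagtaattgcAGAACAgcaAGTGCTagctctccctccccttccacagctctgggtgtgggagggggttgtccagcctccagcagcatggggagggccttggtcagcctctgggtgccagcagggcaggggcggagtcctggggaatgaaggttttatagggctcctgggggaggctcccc
KLK2: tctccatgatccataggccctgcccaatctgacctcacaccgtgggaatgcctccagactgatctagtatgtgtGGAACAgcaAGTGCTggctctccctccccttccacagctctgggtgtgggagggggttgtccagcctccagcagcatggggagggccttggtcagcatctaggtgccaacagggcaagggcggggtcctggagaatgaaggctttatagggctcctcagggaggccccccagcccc
The KLK3 window, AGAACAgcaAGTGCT, starts at base -170 and has 2 mismatches to the element. That of KLK2, GGAACAgcaAGTGCT, starts at -176 with 3 mismatches, and the windows differ by the substitution A1G, counted from the 5′ end of the window with the base of KLK3 first. Laid over each other on these windows, the upstream sequences were equal at 185 of 244 bases (75.8%). A window with at most 2 mismatches is present in 1.41% of all 35116 promoters of the table, each of 300 bases, and the arm AGAACA by itself in 14.8%.

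Windows with at most 2 mismatches were present in 3 genes at least 2-fold higher, KLK3, PMEPA1 and NEDD4L, and in 2 at least 2-fold lower, GRB10 and STON2. Of all tested genes with a promoter entry 0.857% had such windows. Those of PMEPA1, which rose, and of GRB10, which fell, are shown for comparison, with the arms in capitals. They lie on the minus strand of GRCh38.p14 in the upstream stretches chr20:57710578-57710827 and chr7:50782897-50783146.
PMEPA1: TGAAGAatgTGTTCT
GRB10: GGAACAaggGGTTCT
The first starts at base -238 and the second at -110 relative to 1 of several starts of its gene. Only 247 of the 346 genes at least 2-fold higher (71.4%) and 178 of the 277 lower (64.3%) had an entry in the promoter table, under the share needed for a comparison of the sets, which is therefore void. TMPRSS2, ORM2, UGT2B28, TBX15 and CAMK2N1 were among those with none.

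Other secreted and surface genes also rose steeply. TMPRSS2, a membrane protease, was at 38.7, 39 and 31.1 RPKM in vehicle and at 520.2, 522 and 547 RPKM with R1881, a 14.6-fold rise (adjusted p = 5.4e-09). The metalloreductase STEAP4 went from near the detection limit, at 0.118, 0.151 and 0.192 RPKM, to 47.2, 43.3 and 44.5 RPKM (log2 6.12 ± 0.078, adjusted p = 3.15e-10). Of its relatives, STEAP2 was at 239.6 ± 17.3 RPKM in vehicle and 269 ± 14.4 RPKM with R1881 and not called (adjusted p = 0.0613), though it was called higher in 3 of 15 alternatives, median-of-ratios scaling among them (adjusted p = 0.00565). STEAP1 was at 219.7 ± 6.08 and 245 ± 9.68 RPKM, with a log2 change of 0.15 ± 0.049 whose call was lost in 8 of 15 alternatives. NPPC, which encodes the precursor of the C-type natriuretic peptide, was at 0.63, 0.706 and 0.844 RPKM in vehicle and 48.9, 50.6 and 49.3 RPKM with R1881. The zinc-binding secreted glycoprotein gene AZGP1 rose from 17.5 ± 0.954 to 56.6 ± 3.49 RPKM. The acute-phase genes ORM1, at 0.104, 0.16 and 0 RPKM in vehicle and 11.7, 12.2 and 11.7 RPKM with R1881, and ORM2, listed at 0 in all 3 vehicle libraries and at 7.52, 6.81 and 7.13 RPKM, are near-identical neighbours, so the division of reads between them is uncertain.

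A few prominent surface genes went the other way. FOLH1, which encodes prostate-specific membrane antigen, was at 399.6, 430.3 and 456 RPKM in vehicle and 139.7, 141 and 134 RPKM with R1881. Its groups did not overlap, and a change of -290.4 in mean RPKM put it among the 10 largest losses (log2 -1.63 ± 0.057, adjusted p = 7.88e-08), although a close copy in the genome, FOLH1B, may share its reads. The zinc exporter gene SLC30A4 fell from 119 ± 7.28 to 71.3 ± 2.62 RPKM, the calcium channel gene TRPV6 from 5.64 ± 0.614 to 3.99 ± 0.0915 RPKM and ACPP, which encodes prostatic acid phosphatase, from 26.9 ± 0.953 to 20.6 ± 0.402 RPKM.

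The list of recalled androgen response genes, partly built in the field from LNCaP cells under R1881 and so no independent evidence, rose in 84 of 97 tested cases, where 15.5% of all tested genes rose, and 58 of the rises were at least 2-fold, where 2.6% of all tested genes were, with a median log2 change of 1.42. FKBP5, a co-chaperone of steroid receptors, had closely spaced values, 9.17, 9.7 and 9.72 RPKM in vehicle and 214, 212 and 212 RPKM with R1881 (log2 4.41 ± 0.044, adjusted p = 1.37e-10). HPGD, which inactivates prostaglandins, went from 1.07, 1.11 and 0.567 RPKM to 43.9, 39.7 and 37.4 RPKM. In SGK1, a kinase that regulates ion transport and survival, the libraries read 0.199, 0.3 and 0.378 RPKM in vehicle and 15.3, 14.3 and 14.8 RPKM with R1881. These 3 genes started at very different levels, and each rose by a log2 change of at least 4.28, that of SGK1. The list's 3 falls were GPD1L, PA2G4, whose call was lost after median-of-ratios scaling (adjusted p = 0.14), and CCND1, the last from 89.3 ± 1.76 to 74.5 ± 1.07 RPKM.

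**Figure D2:**
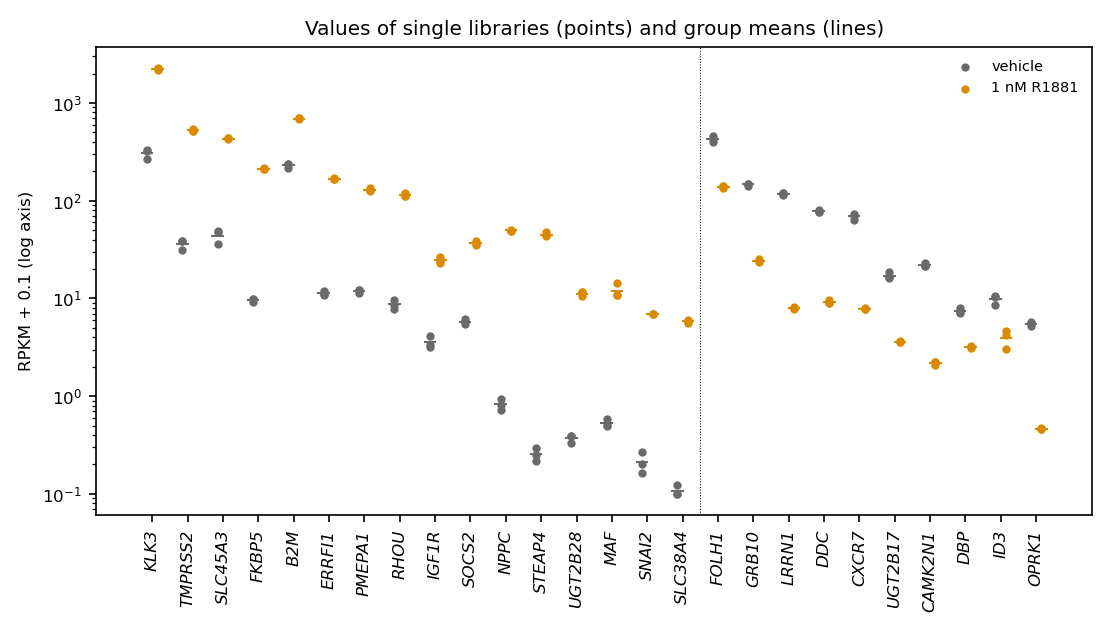
RPKM (+ 0.1, log axis) of the 6 single libraries, 3 vehicle in grey and 3 with 1 nM R1881 in orange, for 16 genes called higher (left of the dotted line) and 10 called lower (right), with short lines at the group means. No vehicle point reaches an R1881 point in any of these genes, and levels span from about 0 RPKM for SLC38A4 in vehicle to 2267.7 RPKM for KLK3 with R1881.

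Enzymes that handle steroids split within 1 family. Of 33 steroid enzyme and transporter genes, 16 were tested, with a median log2 change of 0.08. Of these 5 rose (31.25%, against 15.5% of all tested genes), 3 fell (18.75%, against 33.6%) and 8 were not called. The UGT2B enzymes couple steroids to glucuronic acid, which makes them soluble. UGT2B28 rose from 0.287, 0.294 and 0.234 RPKM to 11.4, 11.4 and 10.5 RPKM and UGT2B11 from 3.09, 2.47 and 1.74 RPKM to 22.4, 21.4 and 22.6 RPKM. UGT2B17, a main enzyme of androgen removal in the prostate, fell instead, from 15.9, 18.5 and 16.5 RPKM to 3.45, 3.6 and 3.47 RPKM (log2 -2.12 ± 0.072, adjusted p = 6.23e-08). UGT2B15, with the same role, fell from 10.0, 9.37 and 10.7 RPKM to 2.37, 2.6 and 2.53 RPKM. All of these groups lay apart, but the genes are close copies of each other and how shared reads were divided is not given in the sources used here. HSD17B4 rose from 122 ± 2.14 to 206 ± 3.34 RPKM and HSD17B11 from 2.83 ± 0.402 to 6.73 ± 0.789 RPKM, both steroid dehydrogenases with a further role in lipid handling. SRD5A1 and SRD5A3, steroid reductases, were at log2 changes of 0.11 ± 0.11 and -0.17 ± 0.064 and not called, the latter called lower in 3 of 15 alternatives.

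Transcription factors of the prostate lineage rose in 15 of 25 tested cases and fell in 6, with a median log2 change of 0.35, where 15.5% of all tested genes rose and 33.6% fell. MAF, a leucine zipper factor, was at 0.397, 0.407 and 0.486 RPKM in vehicle and 10.8, 10.7 and 14.2 RPKM with R1881, where replicate 3 stood highest. SPDEF, an ETS factor of secretory epithelia, went from 42.2, 39.8 and 40.3 RPKM to 220.1, 206 and 236 RPKM and KLF4, a zinc finger factor of differentiating epithelia, from 1.55, 1.74 and 1.31 RPKM to 8.37, 7.73 and 8.69 RPKM. The groups of these genes did not overlap (adjusted p at most 5.21e-07). Outside this list, SNAI2, a zinc finger repressor best known from epithelial-mesenchymal transition and counted with the junction genes, rose from 0.167, 0.064 and 0.102 RPKM to 6.8, 6.82 and 6.89 RPKM. TBX15, a T-box factor also outside it, rose from 0.225, 0.0385 and 0.123 RPKM to 7.99, 7.91 and 8.51 RPKM. FOXA1, the pioneer factor that opens chromatin for the receptor, was at 202 ± 4.52 RPKM in vehicle and 222 ± 3.1 RPKM with R1881 (log2 0.13 ± 0.043, adjusted p = 0.0304), a call lost in 7 of 15 alternatives (adjusted p up to 0.105). GATA2, another such cofactor, fell from 52.7 ± 2.57 to 24.6 ± 1.74 RPKM. HOXB13 was at 175 ± 6.28 and 148 ± 7.45 RPKM and called lower, but not after median-of-ratios scaling (adjusted p = 0.134). With median-of-ratios scaling 16 of the list were higher and 3 lower.

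Of 35 nuclear receptors and their coregulators, 6 were higher (17.1%, against 15.5% of all tested genes) and 18 lower (51.4%, against 33.6%). The median log2 change was -0.18, but after median-of-ratios scaling the counts were 7 and 7, so the surplus of falls rests on the scaling. The orphan receptor NR4A1 stood apart from this, at 4.37, 3.88 and 3.61 RPKM in vehicle and 22.7, 21.6 and 22.9 RPKM with R1881 (log2 2.37 ± 0.074, adjusted p = 3.65e-08). RARB, a retinoic acid receptor, rose from 1.75 ± 0.264 to 2.85 ± 0.333 RPKM, and NR1D1, a heme-binding repressor of the clock, fell from 3.48, 2.87 and 2.31 RPKM to 1.41, 1.18 and 1.28 RPKM. NCOA2, a coactivator of steroid receptors, changed by less, falling from 21.4 ± 0.794 to 15.7 ± 0.595 RPKM.

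Insulin and IGF signalling genes changed in both directions among receptors, adaptors and kinases. Of 25 tested genes 9 rose (36%, against 15.5% of all tested genes) and 10 fell (40%, against 33.6%), with a median log2 change of 0.09. After median-of-ratios scaling 12 rose and 7 fell. At the receptors, IGF1R, which binds insulin-like growth factors, went from 4.07, 3.23 and 3.11 RPKM to 24.2, 22.7 and 26.4 RPKM (log2 2.66 ± 0.099, adjusted p = 1.09e-07), while INSR, the insulin receptor, was at 5.37 ± 0.474 and 4.4 ± 0.377 RPKM and called lower, a call lost in 7 of 15 alternatives (adjusted p up to 0.248). Among adaptors, GRB10, which restrains both receptors, fell from 149, 149.7 and 143 RPKM to 23.4, 25 and 24 RPKM (log2 -2.58 ± 0.046, adjusted p = 1.93e-09), while IRS2, which passes their signal on, rose from 0.762 ± 0.163 to 3.87 ± 0.308 RPKM. PIK3R1, the regulatory subunit of PI 3-kinase, fell from 33.7 ± 0.615 to 14.2 ± 0.483 RPKM, and INPP4B, a lipid phosphatase that acts on its product, rose from 1.58, 1.57 and 2.0 RPKM to 8.02, 7.94 and 8.64 RPKM. Downstream, SGK1 rose as given, AKT1 was not called (log2 0.11 ± 0.050, adjusted p = 0.108, but 0.00452 after median-of-ratios scaling) and DDIT4, which restrains mTORC1, fell from 148 ± 4.07 to 75.3 ± 2.11 RPKM.

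In the growth factor receptor list, 7 of 16 genes rose (43.75%, against 15.5% of all tested genes) and 4 fell (25%, against 33.6%). The median log2 change of -0.05 became 0.06 after median-of-ratios scaling. ERRFI1, a feedback inhibitor of the EGF receptor, was at 11.1, 11.9 and 10.8 RPKM in vehicle and 166, 169 and 166 RPKM with R1881, with no overlap and a spread of a few RPKM within each group (log2 3.84 ± 0.050, adjusted p = 3.15e-10). DUSP4, a phosphatase that switches off MAP kinases, rose from 4.51, 2.65 and 3.52 RPKM to 9.26, 9.46 and 10.4 RPKM. TGFA, a ligand of the EGF receptor, fell from 2.19 ± 0.136 to 1.11 ± 0.187 RPKM.

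Of 33 WNT, TGF-beta and Notch genes 9 rose (27.3%, against 15.5% of all tested genes) and 13 fell (39.4%, against 33.6%). After median-of-ratios scaling 12 rose and 10 fell, so which direction was more frequent in the list depended on the scaling, as it did over all tested genes. Inhibitors of TGF-beta and BMP signals moved apart. PMEPA1, which sequesters SMAD proteins, rose from 12.2, 12.1 and 11.2 RPKM to 128, 127 and 134 RPKM (log2 3.4 ± 0.050, adjusted p = 5.44e-10), whereas the decoy receptor gene BAMBI fell from 18.2 ± 1.94 to 4.97 ± 0.878 RPKM and the inhibitory SMAD7 from 4.26 ± 0.545 to 1.45 ± 0.157 RPKM. Among receptors, BMPR1B went from 6.38, 7.89 and 7.25 RPKM to 43.1, 42.6 and 43.3 RPKM and the WNT receptor FZD5 from 4.25, 4.42 and 3.79 RPKM to 26.1, 22.9 and 24.7 RPKM, while FZD3 fell from 9.53 ± 1.0 to 3.71 ± 0.389 RPKM. The Notch ligand JAG1 rose from 17.7, 15.7 and 15.3 RPKM to 68.1, 62.8 and 71.3 RPKM and the related JAG2 fell from 19.9 ± 0.736 to 14 ± 0.461 RPKM. ID1 and ID3, textbook targets of BMP signalling, were lower, ID3 at 10.5, 10.3 and 8.48 RPKM in vehicle and 2.92, 4.08 and 4.51 RPKM with R1881. BAMBI, SMAD7, FZD3 and JAG2 were named after their values were seen.

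Transporters and channels showed large changes both ways, with 21 of 52 tested genes higher and 21 lower (25 and 16 after median-of-ratios scaling). On the deposited RPKM 40.4% were thus higher, against 15.5% of all tested genes, and 40.4% lower, against 33.6%. Of the rises 13 were at least 2-fold, a size that 2.6% of all tested genes reached. SLC45A3, known as prostein, was at 48.7, 47.2 and 35.8 RPKM in vehicle and 435, 428 and 436 RPKM with R1881. ABCC4, which exports cyclic nucleotides and prostaglandins, rose from 11.7, 12.9 and 10.7 RPKM to 95, 92.1 and 93.5 RPKM, and SLC16A6, a monocarboxylate carrier, from 3.01, 3.44 and 3.55 RPKM to 27.7, 27.9 and 26.5 RPKM. SLC38A4, an amino acid transporter, was listed at 0 in 2 vehicle libraries and at 0.022 RPKM in the third, and at 5.9, 5.8 and 5.56 RPKM with R1881. The adjusted p of these genes was at most 3.44e-08.

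In central carbon metabolism a few genes rose against a list that moved little. Of 43 glycolysis and TCA cycle genes 8 rose (18.6%, against 15.5% of all tested genes) and 16 fell (37.2%, against 33.6%). After median-of-ratios scaling 12 rose and 4 fell. All tested genes turned in the same way, from 2066 higher and 4473 lower to 3114 and 2605, so this turn is not particular to the list. SORD, which makes fructose from sorbitol, was the exception in size, at 77.3, 80.5 and 75.7 RPKM in vehicle and 298, 309 and 313 RPKM with R1881 (log2 1.97 ± 0.046, adjusted p = 8.02e-09). Hexokinase HK1 rose from 31.4 ± 1.01 to 49.9 ± 2.1 RPKM, the glycogen phosphorylase gene PYGB from 37.7 ± 2.46 to 60.4 ± 2.21 RPKM and PFKFB2, which makes an activator of phosphofructokinase, from 5.09 ± 0.382 to 10.5 ± 0.875 RPKM. Among the 10 largest gains in RPKM were also BRP44, a subunit of the mitochondrial pyruvate carrier, at 217, 225 and 239.6 RPKM in vehicle and 615, 622 and 626 RPKM with R1881, and ODC1, the first enzyme of polyamine synthesis, at 221, 226 and 228 RPKM and 611, 607 and 624 RPKM. Of 37 oxidative phosphorylation genes 0 rose and 11 fell (29.7%, near the 33.6% of all tested genes), and 1 and 2 after median-of-ratios scaling. Their median was -0.12, the same to 2 decimals as that of all genes.

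**Figure D3:**
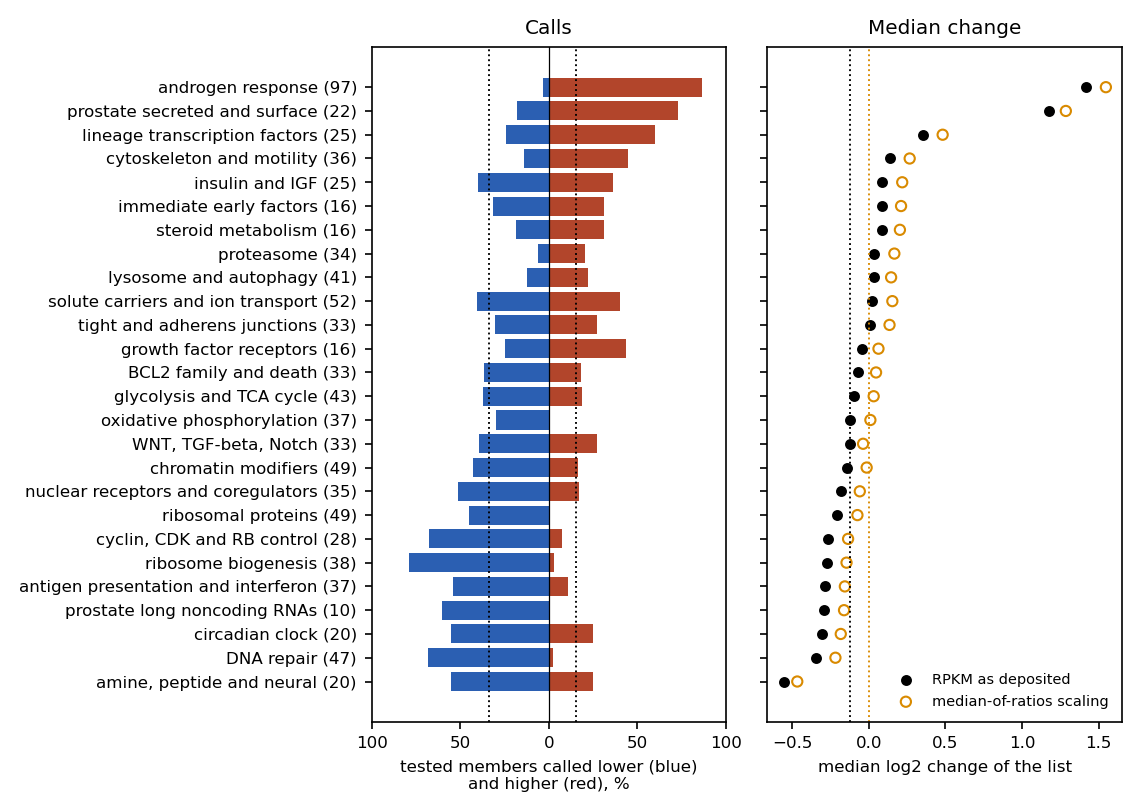
Left, share of the tested members of each list (number tested in brackets) called lower (blue) or higher (red) with R1881, with dotted lines at the shares of all tested genes, 33.6% and 15.5%. Right, the median log2 change of each list on the RPKM as deposited (filled) and after median-of-ratios scaling (open), with dotted lines at the medians of all genes, so that among the lists drawn, which leave out the cell type markers, the androgen response and secreted lists stand far to the right and the neural list furthest to the left.

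The list of amine and peptide receptors and neural genes fell in 11 of 20 tested cases (55%, against 33.6% of all tested genes) and rose in 5 (25%, against 15.5%). Its median log2 change was -0.56, and 11 were lower and 6 higher after median-of-ratios scaling. It held 6 of the 15 genes named for the largest falls, LRRN1, CAMK2N1, CXCR7, DDC, OPRK1 and BCHE, and was chosen with such results known. LRRN1, a leucine-rich repeat membrane protein, was at 114, 120.5 and 119 RPKM in vehicle and 7.99, 7.81 and 7.76 RPKM with R1881, a 15-fold fall (log2 -3.82 ± 0.046, adjusted p = 2.96e-10). DDC, which makes dopamine and serotonin from their amino acid precursors, fell from 76.3, 80.2 and 76.5 RPKM to 9.46, 8.9 and 8.87 RPKM and CXCR7, a scavenger receptor for chemokines, from 73.8, 68.9 and 64.1 RPKM to 7.8, 7.7 and 7.75 RPKM. The 3 genes went from well expressed to under 10 RPKM with no overlap. CAMK2N1, an inhibitor of the kinase CaMKII, went from 21.5, 21.3 and 23.1 RPKM to 2.12, 1.99 and 2.12 RPKM, and the kappa opioid receptor gene OPRK1 from 5.1, 5.56 and 5.57 RPKM to 0.358, 0.359 and 0.377 RPKM. MAOA, which breaks down amines, went the other way, from 97.1 ± 6.19 to 188 ± 2.61 RPKM.

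Other large falls were outside that list. FAM198B, a Golgi-associated kinase-like protein, was at 30.5, 34.1 and 30.4 RPKM in vehicle and 2.55, 2.18 and 1.9 RPKM with R1881. MANEA, a Golgi mannosidase, fell from 95.8, 123 and 103 RPKM to 20, 18.3 and 17.3 RPKM and PKIB, an inhibitor of protein kinase A, from 10.3, 11.2 and 12.7 RPKM to 1.66, 1.67 and 1.33 RPKM. All had groups that lay apart (adjusted p at most 2.17e-07). SERPINI1, a protease inhibitor of neurons, fell from 15.3, 18.5 and 19.4 RPKM to 2.79, 3.17 and 2.71 RPKM and CBLN2, which organises synapses, from 26.8, 31.6 and 32 RPKM to 5.81, 5.13 and 4.91 RPKM.

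Genes of the cell cycle entry machinery and of DNA repair were mostly lower, by modest amounts. Of 28 cyclin, CDK and RB control genes 19 fell (67.9%, against 33.6% of all tested genes) and 2 rose, with a median log2 change of -0.26, and 13 and 2 after median-of-ratios scaling. Of 47 DNA repair genes 32 fell (68.1%) and 1, the ligase gene LIG4, rose, with a median of -0.35, and 23 and 3 after median-of-ratios scaling. CCNG2, a cyclin linked to growth arrest, was at 27.6, 29.3 and 29.4 RPKM in vehicle and 15, 12.8 and 13.1 RPKM with R1881, the only fall of at least 2-fold in the first of these lists. RBL1, a relative of the retinoblastoma protein, fell from 7.35, 6.99 and 6.85 RPKM to 4.06, 4.39 and 4.09 RPKM, and CDKN2B, an inhibitor of CDK4 and CDK6, rose from 0.454, 0.347 and 0.511 RPKM to 0.999, 0.969 and 1.16 RPKM. In repair, XRCC2, which acts in homologous recombination, fell from 6.15, 7.31 and 6.59 RPKM to 3.23, 3.38 and 3.23 RPKM and RAD54L, which remodels DNA in the same pathway, from 12.5, 11.9 and 11.2 RPKM to 7.1, 7.59 and 6.53 RPKM.

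Ribosomal protein genes were 7 of the 10 largest losses in RPKM, but their proportional changes were small. Of 38 ribosome biogenesis genes 30 fell (78.9%, against 33.6% of all tested genes) and 1 rose, with a median log2 change of -0.27, and 17 and 2 after median-of-ratios scaling. Among these, POLR1E, a subunit of RNA polymerase I, fell from 27.6, 29 and 25.9 RPKM to 16.9, 20.3 and 18.3 RPKM. Of 49 ribosomal protein genes 22 fell and 0 rose, but only 6 fell after median-of-ratios scaling, and this group cannot be called lower apart from the scaling. RPS6 had the largest loss in RPKM of any gene, from 2903, 2692 and 3007 RPKM to 2213, 2532 and 2519 RPKM, with an adjusted p of 0.0296. This call was lost after median-of-ratios scaling (adjusted p = 0.268), without the filter (0.216), with the replicate block (0.0665) and on leaving out vehicle replicate 1 or 3 or R1881 replicate 1 or 2 (0.0617 to 0.096). Of the 10 largest losses only 3 were among the 10 largest after median-of-ratios scaling. Many ribosomal protein genes also have processed pseudogenes that can share their reads.

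Antigen presentation and interferon genes held 2 rises of at least 2-fold and many smaller falls. Of 37 tested, 20 fell (54.1%, against 33.6% of all tested genes) and 4 rose (15.5% of all did), with a median log2 change of -0.29, and 17 and 7 after median-of-ratios scaling. SOCS2, a suppressor of cytokine signals that is best known for restraining growth hormone, rose most, from 5.63, 6.01 and 5.42 RPKM to 38.4, 36.1 and 35.4 RPKM (log2 2.59 ± 0.060, adjusted p = 8.05e-09). B2M, the light chain of class I molecules, was at 217, 237 and 235 RPKM in vehicle and 696, 680.2 and 695 RPKM with R1881, and so was 1 of the 10 largest gains (adjusted p = 4.73e-08). HLA-B, a heavy chain gene, was at 24.3 ± 1.19 RPKM in vehicle and 24.8 ± 0.979 RPKM with R1881, without a call (adjusted p = 0.74). IRF1, an interferon-induced factor, fell from 1.19, 1.1 and 0.814 RPKM to 0.239, 0.251 and 0.351 RPKM and IFIT5, a sensor of viral RNA, from 3.25, 4.07 and 3.75 RPKM to 1.62, 1.56 and 1.57 RPKM.

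Of 20 clock genes 11 fell and 5 rose, against 8 and 6 after median-of-ratios scaling, where 15.5% of all tested genes rose and 33.6% fell on the deposited RPKM. PER1, a repressor of the clock that glucocorticoids are known to induce, rose from 2.82, 2.51 and 2.27 RPKM to 8.65, 8.33 and 9.21 RPKM (log2 1.61 ± 0.088, adjusted p = 1.32e-06). PER2 and PER3 did not follow it and were called lower, PER3 from 8.6 ± 0.0996 to 5.13 ± 0.319 RPKM. The output factors DBP, at 7.25, 6.96 and 7.91 RPKM in vehicle and 3.02, 3.16 and 3.06 RPKM with R1881, and HLF, at 1.59, 2.02 and 1.68 RPKM and 0.749, 0.756 and 0.862 RPKM, fell without overlap. All cultures were taken at 1 time, so a shift in phase and a change in level cannot be told apart.

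Of the genes of cell death 6 of 33 were higher and 12 lower, and 10 and 10 after median-of-ratios scaling. These counts are near the shares of all tested genes, 15.5% higher and 33.6% lower. TNFAIP8, known to counter apoptosis, rose from 6.96, 8.54 and 7.92 RPKM to 34.9, 31.2 and 32.3 RPKM. BCL2L1, which encodes the survival protein BCL-XL, rose from 35.4 ± 2.79 to 57.1 ± 1.24 RPKM. BMF, a pro-apoptotic member of the BCL2 family, fell from 3.73, 4.34 and 4.34 RPKM to 1.59, 1.7 and 1.54 RPKM and BIRC3, an inhibitor of apoptosis, from 1.51, 1.74 and 1.66 RPKM to 0.489, 0.497 and 0.387 RPKM, so the members that moved do not all act in 1 direction.

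Of 36 cytoskeleton genes 16 rose (44.4%, against 15.5% of all tested genes) and 5 fell (13.9%, against 33.6%), with a median log2 change of 0.14. RHOU, a small GTPase of the CDC42 family, was at 8.55, 9.62 and 7.76 RPKM in vehicle and 121, 112 and 112 RPKM with R1881 (log2 3.66 ± 0.075, adjusted p = 4.29e-09). TPM1, a tropomyosin, rose from 23.9, 26.1 and 27.7 RPKM to 55.3, 57.2 and 57.1 RPKM and CDC42EP3, which binds CDC42, from 3.59, 4.3 and 3.74 RPKM to 9.17, 8.96 and 9.12 RPKM. The keratin KRT8, typical of luminal cells and not part of this list, went from 93.6, 88.9 and 80.8 RPKM to 475, 479 and 529 RPKM. Junction genes showed no common direction, with 9 of 33 higher (27.3%) and 10 lower (30.3%, against 33.6% of all tested genes). After median-of-ratios scaling 13 were higher and 5 lower. SNAI2, given above, had the largest rise of the list (log2 3.59 ± 0.11). CLDN8, a claudin, rose from 2.94, 3.32 and 3.14 RPKM to 11.8, 10.5 and 9.24 RPKM, CDH26 fell from 3.27, 4.19 and 4.07 RPKM to 0.598, 0.623 and 0.667 RPKM, and E-cadherin, CDH1, was at 155 ± 9.54 and 136 ± 6.68 RPKM and called lower, a call lost in 5 of 15 alternatives (adjusted p up to 0.49).

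The remaining lists held fewer large changes. On the deposited RPKM 15.5% of all tested genes rose and 33.6% fell. The shares were 20.6% and 5.88% in the proteasome list and 22% and 12.2% in the lysosome and autophagy list. In the chromatin list they were 16.3% and 42.9%, and among immediate early factors 31.25% each. Of 34 proteasome genes 7 rose and 2 fell, 14 and 1 after median-of-ratios scaling, with PSMA6 highest, from 108, 112 and 105 RPKM to 176, 174 and 179.5 RPKM. Among 41 lysosome and autophagy genes 9 rose and 5 fell, 17 and 1 after median-of-ratios scaling, and WIPI1, which binds the membranes of forming autophagosomes, rose from 2.52, 3.83 and 3.19 RPKM to 19.6, 20.7 and 21.2 RPKM. In the chromatin list 8 of 49 rose and 21 fell, 10 and 12 after median-of-ratios scaling, KDM4B, a histone demethylase, rising from 12.8 ± 1.15 to 22.1 ± 0.505 RPKM and KDM6A, another one, falling from 82.5 ± 1.72 to 44.6 ± 0.656 RPKM. Of 10 prostate long noncoding RNAs 6 fell and 0 rose, where 33.6% of all tested genes fell, with 4 falls after median-of-ratios scaling. In the list of immediate early factors 5 of 16 rose and 5 fell, 7 and 5 after median-of-ratios scaling, and FOSL2, an AP-1 subunit, rose from 4.73, 5.0 and 4.51 RPKM to 11.3, 11.3 and 12.4 RPKM.

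Some strongly changed genes were next to each other in the order of tested genes, though not always close in bases. Runs of at least 3 neighbouring tested genes, each at least 2-fold changed in 1 direction, were counted along the chromosomes on GRCh37. There were 11, of which 8 were higher and 3 lower, with 35 genes of the 623 changed at least 2-fold (4.69% of those tested). Whether reads were counted by strand is not given in the sources used here, so reads that run on from a gene into the next, or from overlapping genes, cannot be told apart from expression of each.

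On chromosome 11, between 133938820 and 134117686, NCAPD3, a subunit of condensin, was at 28.3, 28.2 and 25.9 RPKM in vehicle and 289, 288 and 298 RPKM with R1881. Its neighbours, the junction gene JAM3, at 0.693, 0.628 and 0.588 RPKM and 2.15, 2.66 and 2.16 RPKM, and VPS26B, a subunit of retromer, at 32.6, 31.3 and 30.5 RPKM and 80.7, 84.6 and 88.9 RPKM, changed less. On chromosome 1, between 205577071 and 205649630, SLC45A3 had the ETS factor gene ELK4 beside it, which rose from 13.2, 12.3 and 12.3 RPKM to 30.8, 29.7 and 32.4 RPKM, and LOC100506969 further along, from 22.7, 26.1 and 21.6 RPKM to 60.5, 52.6 and 51.9 RPKM. Transcripts that read through from SLC45A3 into ELK4 are known in prostate cells. Further along chromosome 1, RHOU, which ends at 228882411, had RAB4A, a GTPase of endosome recycling, as the next tested gene, starting at 229406879. RAB4A rose from 34.3, 35.4 and 35.1 RPKM to 98.3, 92.3 and 91.9 RPKM. SPHAR, which completes this run, starts at 229440519, just past the end of RAB4A at 229440128. On chromosome 17 the autophagy gene WIPI1 and SLC16A6 lay within a run with ARSG, a sulfatase gene whose span from 66255323 to 66417000 takes in SLC16A6. The run also counts MIR635, a short entry that lies within WIPI1.

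The runs of falls held 5 of the 15 genes named for the largest falls. On chromosome 3, between 164696686 and 167098071, sucrase-isomaltase SI fell from 6.21, 6.13 and 6.8 RPKM to 0.352, 0.346 and 0.302 RPKM, SLITRK3, a synaptic membrane protein, from 16.1, 15.6 and 15.5 RPKM to 2.89, 2.71 and 2.69 RPKM and butyrylcholinesterase BCHE from 18.2, 17.9 and 18.6 RPKM to 2.41, 2.46 and 2.34 RPKM, with ZBBX lower too. In each of these genes the vehicle libraries lay well above those with R1881 (adjusted p at most 5.21e-05, that of ZBBX). On chromosome 7, between 50511831 and 50861159, DDC and GRB10 adjoin FIGNL1, a repair ATPase gene, which fell from 30.1, 32.5 and 32.8 RPKM to 13.8, 14.1 and 12.5 RPKM. On chromosome 16 the homeobox genes IRX3, from 5.05, 5.7 and 6.22 RPKM to 2.31, 2.57 and 2.48 RPKM, and IRX5, from 2.46, 2.15 and 2.39 RPKM to 0.585, 1.01 and 0.981 RPKM, fell with CRNDE, a long noncoding RNA between them, from 12.5, 14 and 14.2 RPKM to 6.01, 5.69 and 6.03 RPKM.

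The other runs were on chromosome 5, with FAM105A, FAM105B and ANKH, on chromosome 6, with GCNT2, C6orf52 and PAK1IP1, on chromosome 2, with SLC39A10, STK17B and LOC100507039, and on chromosome 9, with FOXD4, CBWD1 and DOCK8. FAM105A rose from 2.02, 2.1 and 1.8 RPKM to 21.4, 22.3 and 20.8 RPKM and ANKH, a membrane protein of pyrophosphate export, from 16, 15.6 and 14.3 RPKM to 58.9, 59.5 and 62.6 RPKM. FOXD4 and CBWD1 belong to families of near-identical copies, so their values, 1.11 ± 0.126 to 7.36 ± 0.297 RPKM and 7.78 ± 0.366 to 38.4 ± 1.6 RPKM, are uncertain.

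**Figure D4:**
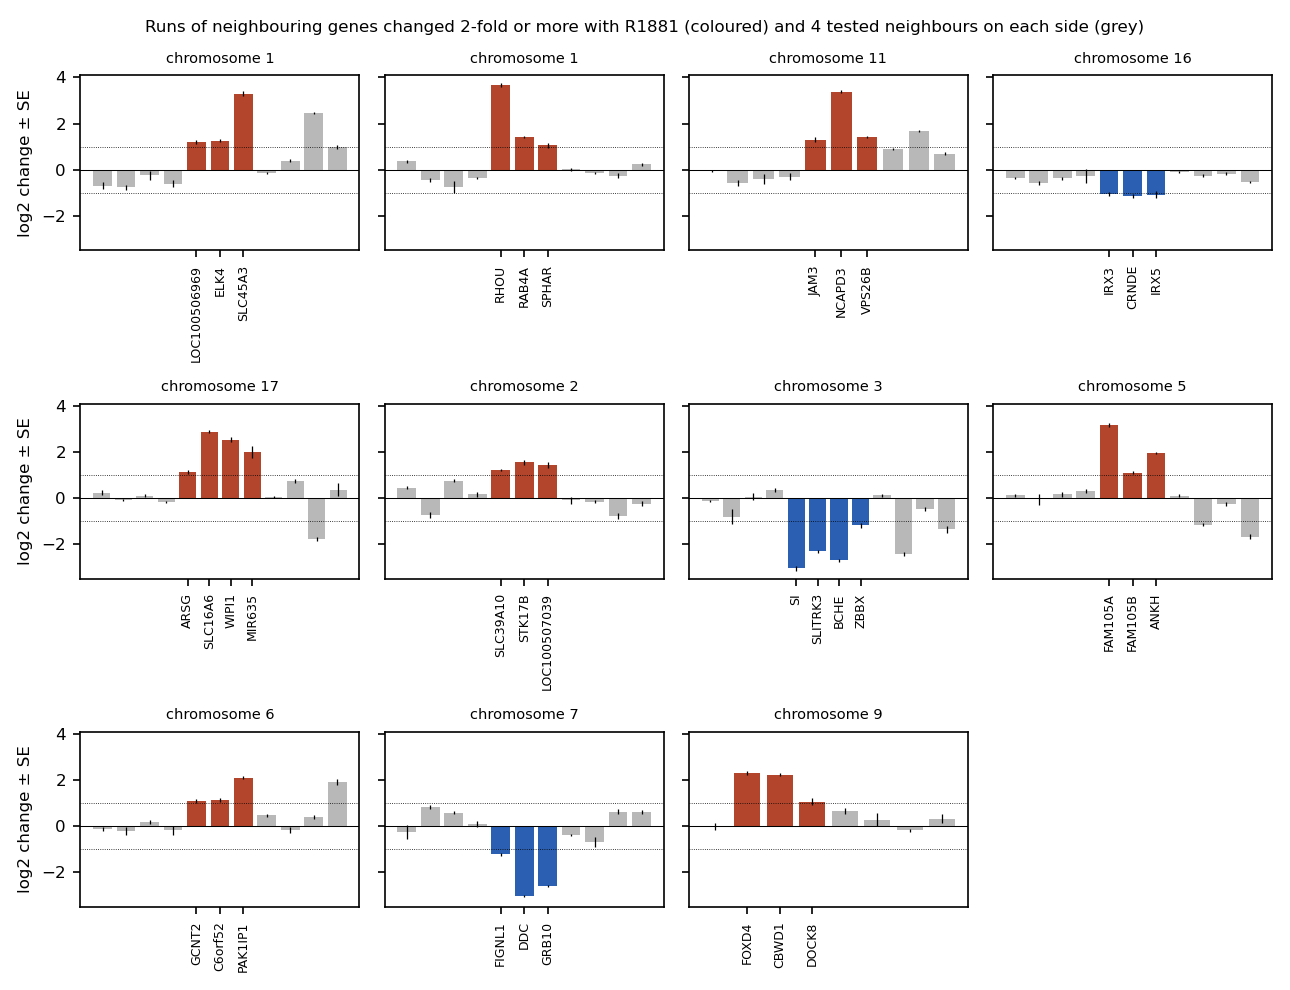
Log2 change (bars) ± SE (lines) with R1881 against vehicle for the 11 runs of at least 3 neighbouring tested genes changed at least 2-fold (red higher, blue lower) and for up to 4 tested neighbours on each side (grey), in chromosomal order, with dotted lines at 2-fold. In several runs 1 gene changed more than those beside it, such as NCAPD3 (log2 change 3.39), SLC45A3 (3.30) and RHOU (3.66).

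Very few genes were switched between 0 and a measurable level. With at least 0.5 RPKM in all 3 libraries of the other group, 4 genes were listed at 0 in all vehicle libraries and 1 in all R1881 libraries. ORM2 was the only one of them above 2 RPKM in all 3 libraries of the other group. LOC100507008 was at 0.863, 0.906 and 0.633 RPKM with R1881, and the short microRNA entries MIRLET7D and MIR568, at 0.964, 2.08 and 0.955 RPKM and 1.05, 0.891 and 2.04 RPKM, and MIR1289-1, at 0.608, 0.748 and 1.31 RPKM in vehicle, correspond to an estimated 0.772 to 3.61 reads a library, too few for a direction to be read.

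The authors' deposited table marks 552 genes as changed between R1881 and vehicle, 344 higher and 208 lower with R1881. The largest p of a marked gene in the authors' deposited table was 0.000993. Of these marked genes 540 (97.8%) were called here, all 540 in the same direction, and they made up 8.26% of the calls made here. Among genes called at least 2-fold here, 45.4% were marked in the authors' deposited table.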

How the data were processed

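LNCaP cells were profiled by sequencing of polyadenylated RNA, with TruSeq libraries, per the labels. Groups and replicate numbers came from the sample titles, and no sample column was without a match. The values the authors deposited are RPKM per gene and library, with coordinates on GRCh37 (hg19), and CASAVA 1.8 is named in the submitters' processing notes. The sheet is named for counts, but the values are not whole numbers. Read filters, annotation and the use of strand are not given in the sources used here. The authors' deposited differences of group means and their marks, whose test is not stated, were only set beside the calls made here.

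Depth was estimated from the steps of 1 read in 664 low genes with GENCODE 29 lengths. Of 2885 low genes 36.1% had whole multiples within 0.0005, too few to recover counts, so no count test was run. Genes were tested with limma-trend (limma 3.58.1, R 4.3.3) on log2(RPKM + 0.5) over the 6 libraries (residual df 4), without further scaling, two-sided, with Benjamini-Hochberg adjustment over 13295 genes and calls under 0.05. The script was tested on simulated data. Another 17 entries with names turned into dates could not be named, and where 20 symbols had an entry on X and another on Y, the latter, all at 0, were left out.

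The comparison, its members and the gene lists were chosen with earlier results of these data known. The text names the 15 largest changes each way above 5 RPKM, the 10 largest gains and losses, up to 4 called members of each list, genes at 0 in 1 group, runs of neighbours and 4 known androgen targets, though not every one of these. KLK4, AZGP1, SLC30A4, TRPV6, ACPP, STEAP1, STEAP2, FOXA1, GATA2, HOXB13, PIK3R1, IRS2, INSR, DDIT4, HLA-B, PER3, MAOA, BCL2L1, TGFA, the HSD17B, SRD5A and coregulator genes and other members that went against their list were picked after their values were seen. Promoters came from RefSeq on GRCh38.p14. Some genes of the lists are counted but not reported here by name. Alternatives covered the pseudocount, filter, scaling, libraries in the fit, trend, replicate block and each library left out.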

Additional observations from a re-analysis of the deposited data

How the results depend on the processing

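The counts of higher and lower genes kept within 1.5 times of 2066 and 4473 under every alternative except median-of-ratios scaling, which gave 3114 and 2605. Leaving out each library in turn gave 1760 to 2065 higher, 3558 to 4159 lower, 351 to 361 at least 2-fold higher and 268 to 295 at least 2-fold lower. The count at least 2-fold lower, 277, became 512 with a pseudocount of 0.1 and 159 with a pseudocount of 1, since the pseudocount sets the fold of low genes. With a floor of 2 RPKM in all 3 libraries of the other group, 1 gene was at 0 in all vehicle libraries and 0 in all R1881 libraries, in place of 4 and 1. Of 247 and 178 genes at least 2-fold higher and lower with a promoter entry, 0 and 0 had a window with at most 1 mismatch. With at most 3 mismatches 29 (11.7%) and 19 (10.7%) had one, in place of 3 and 2. The share of all tested genes with an entry was then 8.45%. The sets are not compared, since too many of their genes lacked an entry. Of the 10 largest losses in RPKM, 3 were among the 10 largest with median-of-ratios scaling, where the cause was not tested. Of the 160 genes named by the rule none changed direction, and 12 lost their call under some alternative, among them RPS6 and TFEB. Among genes named after their values were seen, single libraries decided the calls of FOXA1 (each but vehicle replicate 3), STEAP1 (each but vehicle replicate 3 and R1881 replicate 1), INSR (vehicle replicates 1 and 2, R1881 replicates 1 and 2) and CDH1 (vehicle replicate 1, R1881 replicate 2), which were lost without them, while STEAP2 was called without vehicle replicate 2 and SRD5A3 without vehicle replicate 3. The values gave no sign that the replicate numbers pair the samples, which does not show that the design was unpaired. Same-numbered libraries deviated together at r = -0.0535, 0.05 and -0.0514 over genes, and differently numbered ones at -0.1005 to 0.156. With the replicate block 1929 genes were higher, 4025 lower, 351 at least 2-fold higher and 283 at least 2-fold lower. The reads behind a level depend on the length of the gene, with 3 estimated reads in a gene of 2 kb at 0.0807 to 0.209 RPKM in these 6 libraries, and the depth itself is an estimate, so no counting interval is given.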
